A study of Mus musculus with 12 samples.

Results

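The troponins are the calcium switch of the striated muscle thin filament, and 7 of the 8 troponin genes were followed here across the hearts of MHC-CELFΔ mice and their wild type littermates. The members were all features of the value table whose gene symbol was that of a troponin, which gave 7 of 30854 distinct features, 1 for each gene. They were Tnnt1 and Tnni1 of slow skeletal muscle, Tnnt3, Tnni2 and Tnnc2 of fast skeletal muscle, Tnni3 of the heart, and Tnnc1, which slow skeletal muscle and heart share. The gene of cardiac troponin T was not analysed here.

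Slow skeletal troponin T (Tnnt1) was the troponin that changed most. It was 3.90-fold higher in the mild line and 18.1-fold higher in the severe line than in wild type hearts, and its levels in wild type, mild and severe hearts did not overlap. Fast skeletal troponin I (Tnni2) was about 1.5-fold lower in both lines than in all wild type hearts, a smaller change whose call depended on single arrays. Against own littermates it was 1.34-fold lower in the mild line, which did not pass, and 1.62-fold lower in the severe line. The other 5 features, among them cardiac troponin I (Tnni3) and cardiac and slow skeletal troponin C (Tnnc1), passed the test in neither line.

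CELF proteins are regulators of alternative splicing. The transgene of MHC-CELFΔ mice encodes a nuclear version that blocks their activity, and its α-myosin heavy chain promoter limits it to cardiomyocytes and to the time after birth. The severe line, MHC-CELFΔ-10, has the stronger disease and the mild line, MHC-CELFΔ-574, the weaker one, and both were kept as hemizygotes. Whole hearts of FVB/N females, 3 weeks old, were measured on 12 Illumina arrays, 1 heart per array, with 3 hearts of each line and 3 wild type littermates of each. The study pooled its 6 wild type hearts as the control of both lines, so both comparisons share their control arrays, and that pooling was followed here.

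Levels are log2 signals after background correction and quantile normalization, and differences between groups are log2 fold changes from limma. A feature passed the test where its p-value, adjusted by Benjamini and Hochberg over all 30854 features, was under 0.05. The threshold of the study's methods also asked for an absolute fold change of 2. Raw array medians over all probes ran from 106 to 123, and the mean correlation of each array with the others of its group was 0.990 to 0.994. Ventricular marker genes summed to between 109042 and 120129 units of normalized signal on every array, and 6 of the 7 passed in neither line. Because whole hearts were measured, fewer cells of a type and less RNA per cell cannot be told apart.

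Troponin has a subunit of each of 3 kinds. Troponin C binds calcium, troponin I holds actin and myosin apart at rest, and troponin T ties the complex to tropomyosin along the actin filament. When calcium binds troponin C, the grip of troponin I on actin loosens, tropomyosin moves and myosin can pull. Separate genes encode slow skeletal, fast skeletal and cardiac forms. The heart uses the slow skeletal troponin I (Tnni1) before birth and replaces it with Tnni3 after birth, while Tnnc1 serves the heart throughout life.

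Some of these genes lie side by side in the mouse genome. In the RefSeq annotation of GRCm38.p6, Tnnt1 and Tnni3 are neighbouring coding genes on chromosome 7, on the same strand, and Tnni2 and Tnnt3 lie on either side of Lsp1 on the same chromosome. The 250 bases before the start of Tnnt1 (chr7:4515976-4516225, minus strand) and of Tnni3 (chr7:4522529-4522778, minus strand) are shown because Tnnt1 gave the largest change of the family while Tnni3, its neighbour, passed the test in neither line. Both run 5′ to 3′, from RefSeq, and the capitals mark the motif TATAAA.
Tnnt1: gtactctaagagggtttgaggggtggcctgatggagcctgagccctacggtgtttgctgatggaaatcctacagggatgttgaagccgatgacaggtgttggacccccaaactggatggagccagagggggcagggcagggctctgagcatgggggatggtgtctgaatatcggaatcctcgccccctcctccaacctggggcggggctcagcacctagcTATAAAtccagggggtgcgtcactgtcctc
Tnni3: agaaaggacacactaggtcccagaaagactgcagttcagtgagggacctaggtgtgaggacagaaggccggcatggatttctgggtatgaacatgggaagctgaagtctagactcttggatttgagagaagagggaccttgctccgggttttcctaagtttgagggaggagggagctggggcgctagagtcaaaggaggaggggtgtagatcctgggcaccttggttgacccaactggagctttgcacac

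The Tnnt1 stretch held TATAAA from 30 to 25 bases before the start, a motif found in 12.4% of 32851 mouse promoter stretches of the same length, and was 59.2% G or C. The Tnni3 stretch had no TATAAA and was 53.6% G or C. Each held 1 E-box (CANNTG, present in 66.2% of all stretches), as CAGGTG from 158 to 153 bases before the start of Tnnt1 and as CAACTG from 19 to 14 bases before that of Tnni3. None of these matches overlapped another. Both strands were searched, also for the CArG box (in 1.47% of stretches), the MEF2 site (2.92%), the MCAT element CATTCC (12.6%) and AGATAA (9.99%), and neither stretch held these letters. Promoter entries were matched for 5 of the 7 genes, and across them 1 match to the MCAT element was found, in Tnnc1. These matches describe letters and were tested for no function.

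Tnnt1 lay well above the median of all features, 6.28, on every wild type array. In the littermates of the mild line its log2 signal was 8.77, 9.15 and 9.07, and in those of the severe line it was 9.32, 8.91 and 9.15. The mild line gave 10.63, 11.19 and 11.26. The severe line gave 13.36, 13.08 and 13.28. Every mild heart was above every wild type heart and every severe heart above every mild heart, with a gap of more than 1 log2 unit at both steps. Transgenic arrays lay wholly above wild type for 3.60% of all features in the mild and 3.59% in the severe line. Severe arrays lay wholly above mild arrays for 9.36% of all features. Before any normalization the same order was present, with raw intensities of 541 to 641 in wild type hearts, 1611 to 2337 in the mild line and 8030 to 9652 in the severe line.

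The group means were 9.06 ± 0.195 in wild type (SD, n = 6), 11.03 ± 0.345 in the mild line (SD, n = 3) and 13.24 ± 0.148 in the severe line (SD, n = 3). Mild hearts exceeded wild type by a log2 fold change of 1.96 (standard error 0.128, 95% interval 1.69 to 2.23, adjusted p = 1.3e-08 from limma). Severe hearts exceeded it by 4.18 (standard error 0.128, 95% interval 3.91 to 4.45, adjusted p = 2.1e-13 from limma). Among all increases, that of Tnnt1 ranked 6th in the mild line and 2nd in the severe line. The mild line was 4.64-fold lower than the severe line (log2 difference -2.21, standard error 0.148, adjusted p = 4.8e-08 from limma), in a contrast where 1.37% of all features passed.

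Tnnt1 was set against each line's own littermates as well. The mild line then stood 4.08-fold above its 3 littermates and the severe line 17.3-fold above its own. The difference between these 2 changes, which share no array, was -2.08 on the log2 scale (standard error 0.208, adjusted p = 3.6e-05 from limma), and 82 features (0.266%) passed that test. Between the wild type littermates themselves Tnnt1 differed by -0.13 (adjusted p = 0.835 from limma). In 24 alternative settings Tnnt1 passed the test in both lines, with log2 fold changes of 1.85 to 2.16 in the mild and 3.98 to 4.27 in the severe line.

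**Figure D1:**
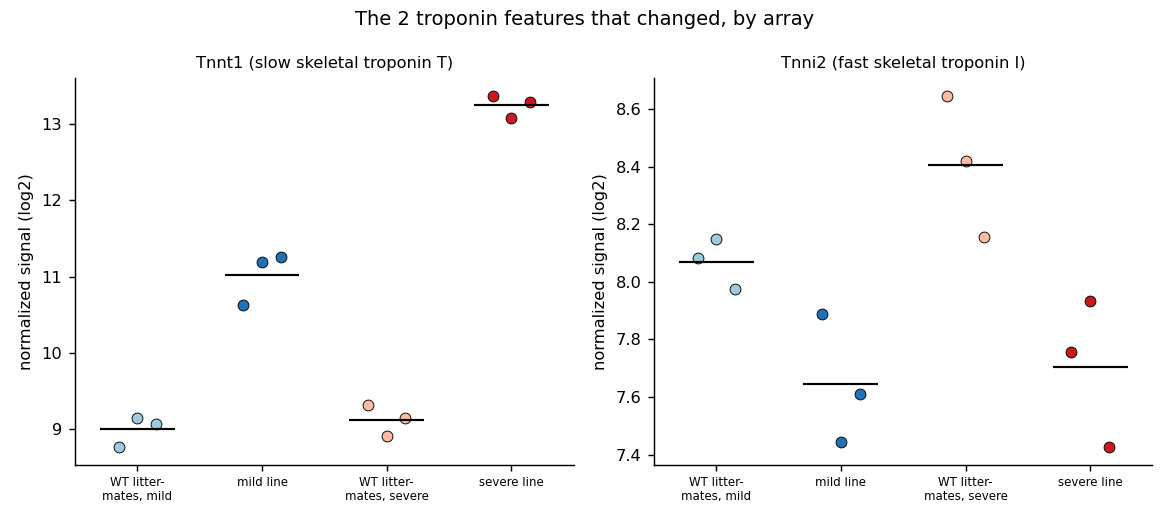
Normalized log2 signal (y axis) of Tnnt1 (left) and Tnni2 (right) on each of 12 arrays, by group (x axis: wild type littermates of the mild line, mild line, wild type littermates of the severe line, severe line). Points are hearts and bars are group means, and the y scales differ and do not start at 0. Tnnt1 rises from 8.77 to 9.32 in wild type to 13.08 to 13.36 in the severe line, while Tnni2 is lower in both lines by less than 1 unit.

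The other slow skeletal member, Tnni1, did not pass the test in any comparison made here. Its log2 signal was 6.05, 6.18 and 6.15 in the littermates of the mild line and 6.46, 6.42 and 6.33 in those of the severe line. The mild line gave 6.07, 6.15 and 6.22, and the severe line gave 6.34, 6.29 and 6.23. All of these values lie close to 6.28, the median of all features. The files hold no detection p-value, so whether a feature this dim was above background was not tested. The lines differed from wild type by -0.12 (95% interval -0.30 to 0.06, adjusted p = 0.670 from limma) and 0.021 (95% interval -0.16 to 0.20, adjusted p = 0.956 from limma). Between the 2 sets of littermates Tnni1 differed by -0.28, with the mild line's set lower and no overlap (adjusted p = 0.193 from limma), and non-overlapping littermates were seen for 15.1% of all features.

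Of the fast skeletal members, Tnni2 passed the test in both lines. In the littermates of the mild line its log2 signal was 8.08, 8.15 and 7.97, and in those of the severe line it was 8.65, 8.42 and 8.15. The mild line gave 7.89, 7.44 and 7.61. The severe line gave 7.76, 7.94 and 7.43. All 6 transgenic hearts lay below all 6 wild type hearts, but the highest severe heart, at 7.94, was close to the lowest wild type heart, at 7.97. Transgenic arrays lay wholly below wild type for 3.92% of all features in the mild and 3.63% in the severe line.

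Tnni2 had a log2 fold change of -0.59 in mild hearts (standard error 0.135, 1.51-fold lower, adjusted p = 0.0164 from limma) and of -0.53 in severe hearts (standard error 0.135, 1.45-fold lower, adjusted p = 0.0351 from limma). With it, 2 of the 7 troponins passed the test in each line, against 3.55% of all features in the mild and 3.30% in the severe line. Past the 2-fold threshold there was 1 of 7, Tnnt1, in each line, against 0.269% and 0.136% of all features. The lines differed in Tnni2 by -0.059 (95% interval -0.39 to 0.27, adjusted p = 0.929 from limma). Between the 2 sets of littermates it differed by -0.34, with the mild line's set lower (adjusted p = 0.419 from limma). Those sets did not overlap, as for 15.1% of all features. The changes of the lines against own littermates differed by 0.28 (adjusted p = 0.835 from limma). The calls were not firm. That of the mild line was lost without mild line replicate 2 (-0.49, adjusted p = 0.155 from limma) or 3 (-0.57, adjusted p = 0.0829 from limma) and against its own littermates (-0.42, adjusted p = 0.161 from limma), a contrast in which 2.34% of all features passed. That of the severe line was lost without severe line replicate 1 (-0.56, adjusted p = 0.115 from limma) or 3 (-0.39, adjusted p = 0.232 from limma), and without replicate 2 of either set of littermates (-0.55 and -0.49, adjusted p = 0.0525 and 0.0605 from limma), but against its own littermates the severe line stood at -0.70 (adjusted p = 0.00808 from limma), where 2.32% of all features passed.

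Tnnt3, fast skeletal troponin T, was dim on all arrays. Its log2 signal was 6.12, 6.04 and 6.07 in the littermates of the mild line and 6.00, 6.23 and 6.07 in those of the severe line. The mild line gave 6.31, 6.55 and 6.28 and the severe line 5.97, 6.02 and 6.30. The 3 mild hearts were above all wild type hearts, as for 3.60% of all features, while the severe hearts overlapped them. Its change was 0.29 in mild hearts (95% interval 0.11 to 0.47, adjusted p = 0.0685 from limma) and 0.0090 in severe hearts (95% interval -0.17 to 0.19, adjusted p = 0.984 from limma). The mild line's value crossed the threshold in 4 of 23 alternatives, with adjusted p from 0.0339 to 0.0487 from limma in those and up to 0.426 in the rest. Among the 4 were the fits without severe line replicate 3 (0.29, adjusted p = 0.0385 from limma) and without its littermate 2 (0.32, adjusted p = 0.0455 from limma).

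Tnnc2, fast skeletal troponin C, was as dim. It gave 5.95, 6.17 and 6.11 in the littermates of the mild line, and 6.14, 5.99 and 6.06 in those of the severe line. The mild line gave 6.28, 6.18 and 6.24 and the severe line 6.36, 6.09 and 6.16. The mild hearts lay just above the wild type hearts, as for 3.60% of all features, and the severe hearts overlapped them. The change was 0.16 in mild hearts (adjusted p = 0.372 from limma) and 0.13 in severe hearts (adjusted p = 0.470 from limma).

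Cardiac troponin I, the inhibitory subunit of the adult heart, differed between the wild type littermates of the lines, and no difference between a line and its own littermates passed the test. Tnni3 gave log2 signals of 11.88, 11.87 and 11.90 in the littermates of the mild line and 11.88, 11.89 and 11.80 in the mild line itself. It gave 11.52, 11.07 and 11.23 in the littermates of the severe line and 11.18, 11.42 and 11.33 in the severe line. Each line overlapped its own littermates, and the 6 hearts of the mild line's families lay above the 6 hearts of the severe line's families. The share of all features that separate the families in this way was not counted.

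Against the 6 pooled wild type hearts, Tnni3 differed by 0.28 in mild hearts (adjusted p = 0.498 from limma) and by -0.27 in severe hearts (adjusted p = 0.483 from limma). Against their own littermates the differences were -0.026 (95% interval -0.23 to 0.18, adjusted p = 0.977 from limma) and 0.037 (95% interval -0.17 to 0.25, adjusted p = 0.940 from limma), so both signs turned. The littermates of the mild line exceeded those of the severe line by 0.61 (standard error 0.099, 1.53-fold higher, adjusted p = 0.0298 from limma), and Tnni3 was 1 of 27 features (0.0875%) that passed between the littermates. The mild and severe lines differed by 0.55, close to the difference between their littermates, and did not overlap (adjusted p = 0.155 from limma), as for 18.1% of all features. The call between littermates was lost in 7 of 21 alternatives, with differences from 0.51 to 0.73 and adjusted p from 0.0121 to 0.231 from limma. The calls lost by leaving out 1 array were those without each littermate of the mild line (0.61, 0.62 and 0.60, adjusted p = 0.0809, 0.0744 and 0.171 from limma), littermate 2 or 3 of the severe line (0.51 and 0.59, adjusted p = 0.0716 and 0.0845 from limma) and mild line replicate 2 (0.61, adjusted p = 0.0544 from limma). Families of the lines and any batch of processing cannot be told apart here.

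Tnnc1, the calcium-binding subunit of heart and slow muscle, was among the brightest features of every array. Its log2 signal was 15.28 to 15.40 in wild type, 15.24 to 15.32 in the mild line and 15.11 to 15.28 in the severe line. Raw intensities were 38562 to 43410 in wild type (mean 41869), 36237 to 38733 in the mild line (mean 37665) and 35711 to 40026 in the severe line (mean 37725). In raw values each line overlapped wild type, and no test was run on them. Tnnc1 ranked 1 to 3 from the brightest in wild type hearts, 2 to 4 in the mild line and 3 to 9 in the severe line. Quantile normalization gives arrays with the same rank the same value, which narrows the spread of features this bright, and the files carry no flag for saturated features. Its change was -0.044 in mild hearts (95% interval -0.18 to 0.09, adjusted p = 0.868 from limma) and -0.12 in severe hearts (95% interval -0.25 to 0.0065, adjusted p = 0.409 from limma).

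**Figure D2:**
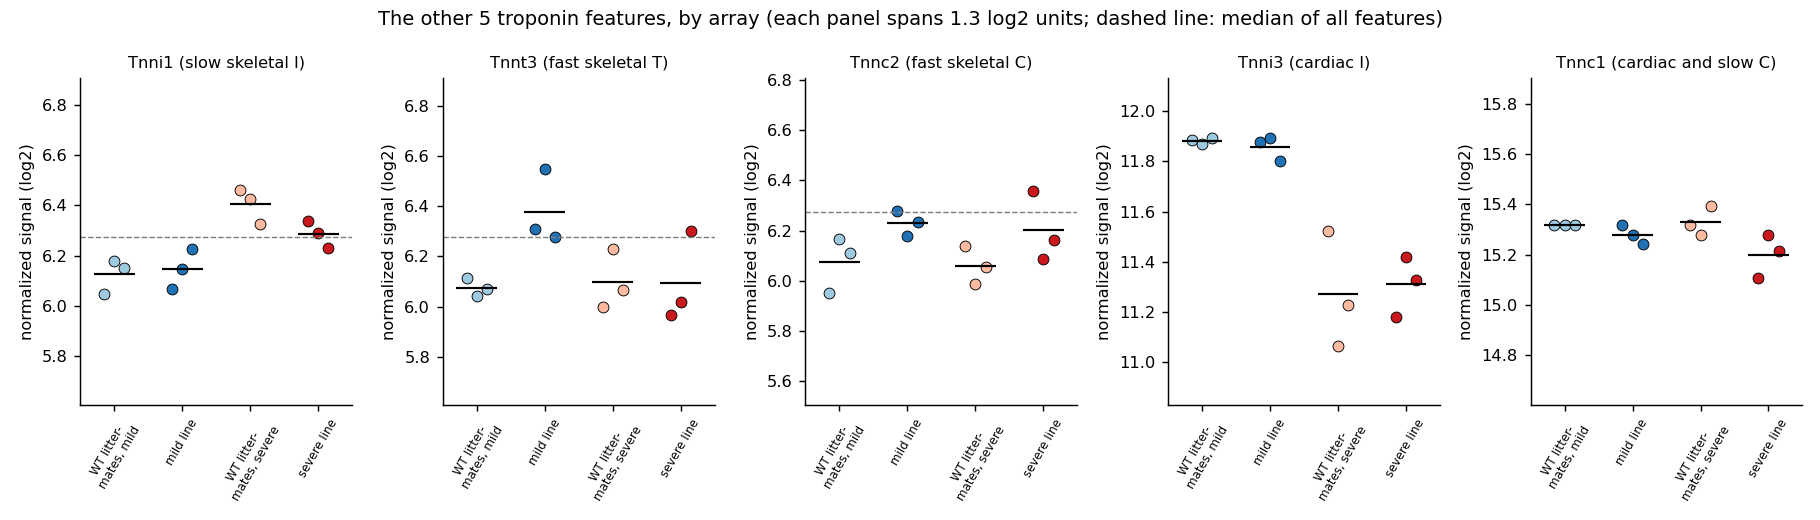
Normalized log2 signal (y axis) of Tnni1, Tnnt3, Tnnc2, Tnni3 and Tnnc1 on each array, by group (x axis), with points for hearts and bars for group means. Every panel spans the same 1.3 log2 units, from different starting levels, and the dashed line, drawn where it falls within the panel, is the median of all features, 6.28. Tnni3 separates the families of the 2 lines rather than transgenic from wild type hearts, and the values in every panel vary by less than 1 unit.

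**Figure D3:**
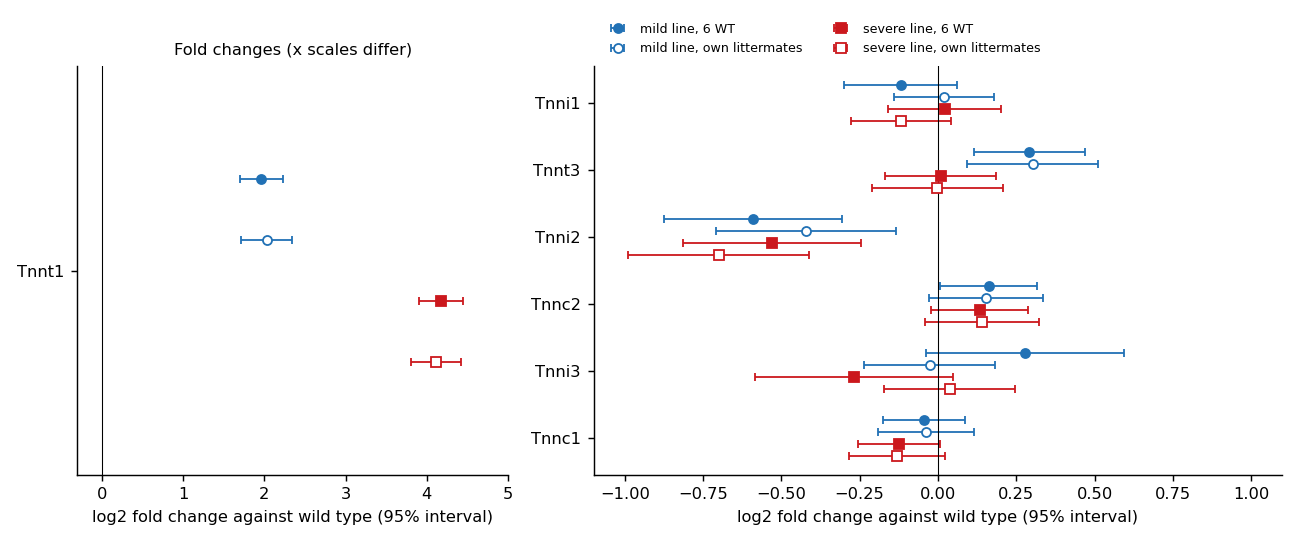
Log2 fold changes against wild type with 95% intervals (x axis) for each troponin (y axis). Circles are the mild and squares the severe line, filled against all 6 wild type hearts and open against the line's own littermates, and the x scale of Tnnt1 differs from that of the other 6. Tnnt1 lies at 1.96 and 4.18, Tnni2 below 0 in all 4 comparisons, and Tnni3 moves to near 0 against own littermates.

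Over the 12 arrays, Tnnt1 correlated with Tnni2 at r = -0.69 and with Tnnc1 at r = -0.76, and Tnni1 with Tnni3 at r = -0.79. These values describe arrays that share group structure and normalization, and carry no test. Of all features with 1 gene symbol, those with the pattern most like Tnnt1 over the 12 arrays were 2310002L09Rik (r = 0.993), Tspo (r = 0.978), P3h2 (r = 0.975), Ppp1r1a (r = 0.974) and 4833412C05Rik (r = 0.972). Tspo encodes a protein of the outer mitochondrial membrane and P3h2 a prolyl hydroxylase of collagen. Their log2 fold changes were 1.45 in the mild and 3.01 in the severe line for 2310002L09Rik, 0.35 and 0.61 for Tspo, 0.45 and 1.52 for P3h2, and 0.82 and 1.29 for 4833412C05Rik.

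The thin filament genes that troponin works with were measured next, 24 of 25 listed. In the mild line 7 rose, 2 fell and 15 did not pass, and in the severe line 6 rose, 1 fell and 17 did not pass. The list's median log2 fold change was 0.074 in the mild and 0.058 in the severe line, while the medians of all 30854 features lay within 0.001 of 0. In the mild line 500 features (1.62%) rose and 595 (1.93%) fell, and in the severe line 539 (1.75%) rose and 480 (1.56%) fell. With each gene represented by its brightest feature, as in the lists, 430 of 19014 genes rose in mild hearts and 502 fell. For severe hearts 454 genes rose and 400 fell. When only the 15427 features above the median signal were tested, 563 rose and 664 fell in mild hearts. Severe hearts then gave 605 increases and 562 decreases. The counts of the lists below can be read against these.

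Skeletal actin (Acta1) rose by 1.42 in mild hearts (standard error 0.084, adjusted p = 3.6e-09 from limma) and by 1.17 in severe hearts (standard error 0.084, adjusted p = 7.1e-08 from limma). The tropomyosins are the strands to which troponin T binds. Tpm2 rose by 0.60 in mild hearts (adjusted p = 0.00118 from limma) and by 1.24 in severe ones (adjusted p = 4.5e-07 from limma). Tpm3, the slow muscle tropomyosin, differed by -0.044 in mild hearts (adjusted p = 0.869 from limma) and rose by 1.59 in severe hearts (standard error 0.062, adjusted p = 8.2e-12 from limma). The other 2 features of Tpm3 gave 0.24 (adjusted p = 0.0792 from limma) and 2.27 in the severe line, so its probes disagreed in size. Xirp2, an actin-binding protein of the cell junctions, rose by 1.21 in mild and by 0.58 in severe hearts (adjusted p = 9.4e-07 and 0.00371 from limma), where the call was lost with median scaling (0.45, adjusted p = 0.0729 from limma). The filament cap Tmod4 fell by 0.51 and 0.68 (adjusted p = 0.00138 and 1.1e-04 from limma). It lay outside the rule for named genes and is named as the sole decrease in the severe line.

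Enzymes that add or remove phosphates on troponin, or cut or tag it for breakdown, were measured for 26 of 30 genes. In the mild line 5 rose, 1 fell and 20 did not pass, and in the severe line 5 rose, none fell and 21 did not pass, with medians of 0.042 and 0.016. Ppp1r1a, an inhibitor of protein phosphatase 1, rose by 1.16 in mild hearts (standard error 0.097, adjusted p = 4.0e-07 from limma) and by 2.07 in severe hearts (standard error 0.097, adjusted p = 1.4e-10 from limma). It was among the genes most like Tnnt1 and was higher in the severe than in the mild line by 0.92 (adjusted p = 1.3e-04 from limma, for the mild minus severe contrast). Prkg1, a kinase driven by cyclic GMP, rose by 0.47 and 0.58 (adjusted p = 2.8e-04 and 5.2e-05 from limma), while its dimmer second feature gave 0.044 and -0.012. Trim63, a muscle ubiquitin ligase, fell by 0.62 in the mild line (adjusted p = 8.5e-04 from limma) and its relative Trim54 rose by 0.72 there (adjusted p = 0.00496 from limma). The call of Trim54 was lost without mild line replicate 1 (0.59, adjusted p = 0.0576 from limma). In the severe line they gave -0.20 and -0.14 and did not pass. Tnni3k, a heart kinase that binds troponin I, gave -0.16 in mild and -0.045 in severe hearts (adjusted p = 0.337 and 0.866 from limma).

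**Figure D4:**
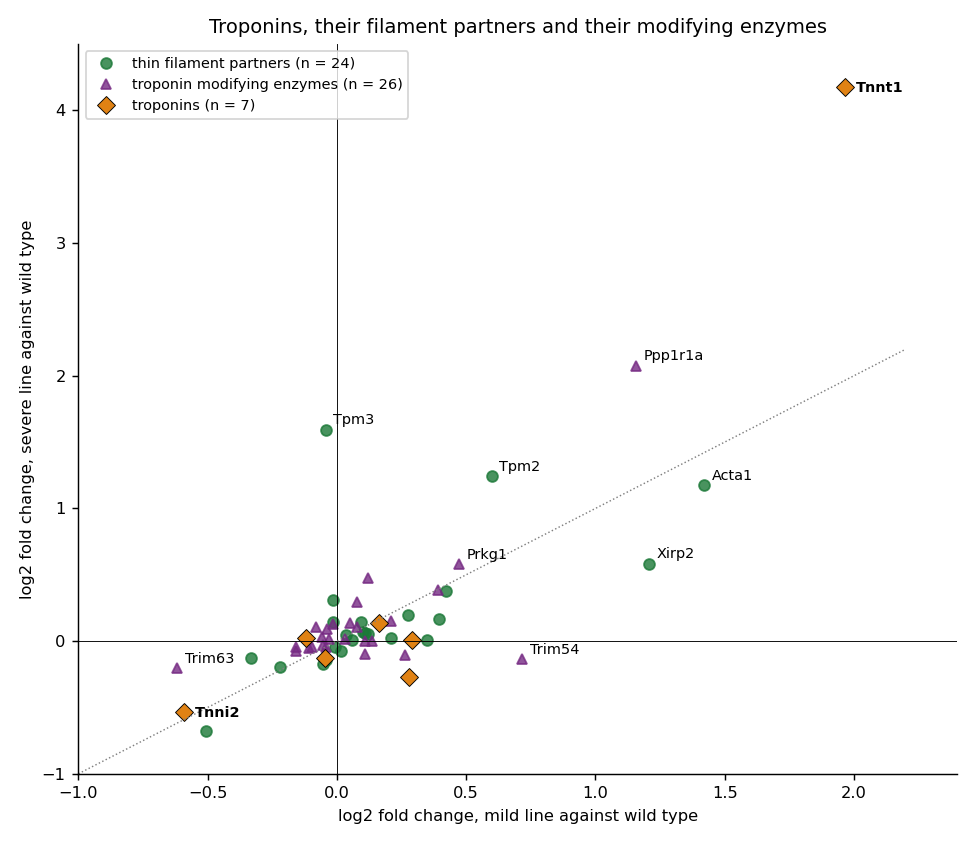
Log2 fold change against wild type in the mild line (x axis) and in the severe line (y axis) for 7 troponins, 24 thin filament partners and 26 troponin modifying enzymes, 1 point per gene, with the dotted line at equal change. Both axes share the same wild type arrays, so agreement along the dotted line is not independent. Tnnt1 at 1.96 and 4.18, Tpm3 at -0.044 and 1.59 and Ppp1r1a at 1.16 and 2.07 lie above the line, while most points are near 0.

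Whether Tnnt1 moved along with other genes of slow skeletal fibres was examined. Of 11 measured of 12 such genes, 1 rose, 2 fell and 8 did not pass in the mild line, with a median of -0.014, and 2 rose, none fell and 9 did not pass in the severe line, with a median of 0.075. Apart from Tpm3, the gene that rose in the severe line was Myh7, the slow and fetal cardiac myosin heavy chain, at 0.59 (adjusted p = 8.4e-04 from limma). It gave 0.31 in mild hearts (adjusted p = 0.0956 from limma), and passed there without mild line replicate 1 (0.42, adjusted p = 0.0220 from limma). Casq2 and Atp2a2, the calsequestrin and calcium pump that heart and slow fibres share, fell by 0.50 each in mild hearts (adjusted p = 0.0239 and 5.8e-05 from limma). A second feature of Atp2a2 fell by 0.96 there (adjusted p = 2.3e-05 from limma) and another, near the median of all features, gave -0.11, so its probes disagreed in size. The call of Casq2 was lost without mild line replicate 1 (-0.33, adjusted p = 0.224 from limma) or 2 (-0.55, adjusted p = 0.0583 from limma), against own littermates (-0.47, adjusted p = 0.120 from limma, and 0.163 with the replicate block) and at a background offset of 16 (-0.51, adjusted p = 0.0978 from limma).

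Of 14 measured of 15 fast skeletal fibre genes, 5 rose, 1 fell and 8 did not pass in the mild line, and 2 rose, none fell and 12 did not pass in the severe line, with medians of 0.074 and 0.094. The myosin light chain Myl1 rose by 1.42 in mild and by 0.85 in severe hearts (adjusted p = 2.7e-07 and 1.6e-04 from limma), and its second feature gave 1.90 and 1.02. Casq1, the fast muscle calsequestrin, rose by 1.14 in mild hearts (adjusted p = 3.5e-04 from limma) and gave 0.62 in severe hearts (adjusted p = 0.0578 from limma), where it passed without severe line replicate 3 (0.82, adjusted p = 0.0213 from limma) and without littermate 1 of the mild or the severe line (0.69 and 0.67, adjusted p = 0.0294 and 0.0441 from limma). It also passed there against own littermates (0.78, adjusted p = 0.0333 from limma) and among features above the median signal (0.62, adjusted p = 0.0483 from limma). Mybpc2 and Pvalb, a myosin-binding protein and a calcium buffer of fast fibres, rose by 0.82 and 0.65 in mild hearts (adjusted p = 3.8e-04 and 2.1e-05 from limma) and gave 0.21 and 0.26 in severe hearts (adjusted p = 0.523 and 0.0714 from limma). There Mybpc2 passed against own littermates (0.41, adjusted p = 0.0486 from limma) and Pvalb among features above the median signal (0.26, adjusted p = 0.0483 from limma). The calcium pump Atp2a1 was the decrease on this list, and it fell by 0.35 in the mild line (adjusted p = 0.0414 from limma), a call lost in 13 of 24 alternatives with adjusted p up to 0.295. Tnni2 thus had the sign of Atp2a1 and not that of the 5 increases in the mild line.

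Genes of embryonic and fetal skeletal muscle, 7 of 8 measured, gave 1 increase and 6 without a call in each line. The increase was Ncam1, a cell adhesion molecule, at 0.35 in mild hearts (adjusted p = 0.0137 from limma) and 0.85 in severe hearts (adjusted p = 2.8e-06 from limma). In the mild line its call was lost without mild line replicate 1 (0.33, adjusted p = 0.0861 from limma) or 2 (0.36, adjusted p = 0.0686 from limma) and with the replicate block against own littermates (0.37, adjusted p = 0.0766 from limma). Its dimmer second feature gave 0.076 in mild and 0.064 in severe hearts, and the mean of both features gave 0.22 in the mild line (adjusted p = 0.0699 from limma). All 9 fetal cardiac genes were measured, and 2 rose, 2 fell and 5 did not pass in the mild line, while 4 rose, none fell and 5 did not pass in the severe line. The natriuretic peptide gene Nppb rose by 1.44 in mild hearts (adjusted p = 3.6e-04 from limma) and by 0.88 in severe hearts (adjusted p = 0.0288 from limma), where the call was lost without severe line replicate 3 (0.50, adjusted p = 0.201 from limma), and without the first of either set of littermates (0.86 for the mild line's set and 0.82 for the severe line's, adjusted p = 0.0532 and 0.0538 from limma). It was also lost with median scaling (0.67, adjusted p = 0.167 from limma), at a background offset of 16 (0.89, adjusted p = 0.0893 from limma) and with trend and robust variances (0.88, adjusted p = 0.151 from limma). Tnni1, the troponin on this list, was not among those that passed.

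Marker genes of other muscle were set beside Tnnt1. Of 11 measured markers of skeletal muscle, out of 13, 2 rose and 1 fell in the mild line and none passed in the severe line, apart from the alternatives for Mybpc2 and Pvalb given above. Those that passed in the mild line were Mybpc2, Pvalb and Atp2a1. The creatine kinase Ckm, which the heart also makes, had group means of 12.91, 12.75 and 12.64 in wild type, mild and severe hearts, and it made up 85.5% to 90.4% of the summed signal of the markers on each array. The full sum was 7629 to 9121 in wild type, 7483 to 8906 in the mild line and 6721 to 7809 in the severe line, and so mostly repeats Ckm. The other 10 markers, a sum added after the values were seen, gave 841 to 941 in wild type, 1034 to 1084 in the mild line and 877 to 941 in the severe line. That sum, which includes Mybpc2 and Pvalb, was above wild type on all 3 mild arrays and within the wild type range on the severe arrays. Among single features, 3.60% lay wholly above wild type in the mild line. Mylpf, a fast myosin light chain, had group means of 6.37, 6.46 and 6.32 in wild type, mild and severe hearts, close to the median of all features. The remaining 6, Myh1, Myh4, Actn3, Ryr1, Myod1 and Pax7, had group means between 5.95 and 6.20 in all groups, below that median.

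The 4 atrial markers summed to 69889 to 76740 in wild type, 55144 to 61002 in the mild line and 69033 to 71714 in the severe line. Nppa made up 47.5% to 53.2% of that sum in wild type, 63.5% to 70.2% in the mild and 51.9% to 54.9% in the severe line. Without Nppa the sums were 32705 to 40326, 16854 to 22262 and 31793 to 34529. In the mild line 3 of 4 fell, and Sln fell by 1.84, Myl7 fell by 1.84 and Myl4 fell by 0.71 (adjusted p = 7.6e-08, 2.2e-07 and 3.3e-05 from limma), and none passed in the severe line. Of 5 smooth muscle markers, Acta2 fell by 0.55 in the mild line (adjusted p = 0.0159 from limma), and Acta2 and Tagln rose by 0.62 and 0.70 in severe hearts (adjusted p = 0.00813 and 6.3e-05 from limma). The sums of the 5 were 6275 to 8793 in wild type, 5425 to 5645 in the mild line and 9603 to 12499 in the severe line, but Acta2 made up 74.4% to 88.7% of them. Without Acta2 the sums were 1295 to 1570, 1228 to 1389 and 1363 to 1476, and the groups overlapped. The call of Acta2 was lost in the mild line without each of its 3 arrays (adjusted p = 0.0820, 0.0686 and 0.0674 from limma, at -0.53, -0.57 and -0.56) and in the severe line without severe line replicate 3 (0.50, adjusted p = 0.0782 from limma). Mild hearts also lost it against own littermates (-0.32, adjusted p = 0.111 from limma, and 0.152 with the replicate block) and at a background offset of 16 (-0.56, adjusted p = 0.0725 from limma). In the severe line it was also lost with median scaling (0.45, adjusted p = 0.0546 from limma) and with the replicate block against own littermates (0.38, adjusted p = 0.0710 from limma). Of 7 ventricular markers, Ryr2, the calcium release channel, fell by 1.11 in mild and by 0.49 in severe hearts (adjusted p = 4.0e-07 and 0.00414 from limma), and 6 did not pass in either. Ryr2, Acta2 and Myl4 each had a dimmer second feature, which passed in neither line. In mild and severe hearts these gave -0.026 and -0.22 for Ryr2, -0.040 and -0.0078 for Acta2, and -0.14 and -0.25 for Myl4. After the background offset the lowest signal of any feature was 5.66, so no marker could be at 0, and detection of the markers was not tested. The part of these cell types in the troponin values was not tested.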

How the data were processed

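Total RNA from 12 whole hearts, 1 per array, was labelled with biotin and measured on Illumina MouseWG-6 v2.0 BeadChips. The raw files deposited by the authors hold 1 bead summary intensity per probe, unnormalized, and their value table gives log2 signals that they had background corrected and quantile normalized. Submitters' notes name GenomeStudio and limma, without versions. Probes were named from GEO's platform annotation: of 45281 IDs, 34885 have 1 symbol, 10378 have none and 18 have several.

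Where IDs shared the same values on every one of the 12 arrays they were merged, leaving 30854 features, and 6 blank lines in 3 arrays were dropped. Intensities were corrected with the normal-exponential model (offset 50), quantile normalized and fitted on the log2 scale in R 4.3.3 with limma 3.58.1. Group means of wild type, mild and severe hearts were fitted together, and a second fit kept the littermates of each line apart. The threshold of the methods was a change of at least 2-fold, together with either p under 0.001 or an adjusted p under 0.05. Each listed gene was represented by its brightest feature, and 104 of 114 list genes were measured. Replicates were separate hearts, and their number limits the precision. The fit was tested on simulated data.

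Named were all troponins, up to 4 genes of each list with the largest change that passed in a line, Tnni3k, and the 5 features most correlated with a troponin past the 2-fold threshold. The members and lists were chosen with earlier results of these data known. Alternatives were other background corrections, scaling, filters and variance models, the authors' table, own littermates, a block by replicate number and leaving out each array.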

Additional observations from a re-analysis of the deposited data

Results flagged for a closer look

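The change of Tnnt1 against own littermates was smaller in the mild than in the severe line, by -2.08 on the log2 scale (adjusted p = 3.6e-05 from limma), with all 3 hearts of each line above their littermates. The same test of a difference between the lines, each against its own littermates, passed for other genes named here. It gave -1.65 for Tpm3 (adjusted p = 5.6e-08 from limma), -1.001 for Ppp1r1a (adjusted p = 0.00534 from limma), -1.35 for 2310002L09Rik (adjusted p = 2.3e-05 from limma) and -0.94 for P3h2 (adjusted p = 3.2e-04 from limma), all with the larger increase in the severe line. It gave -1.59 for Myl7 (adjusted p = 0.00297 from limma), -1.51 for Sln (adjusted p = 0.00293 from limma) and -0.89 for Ryr2 (adjusted p = 0.00113 from limma), where the mild line was the lower one. For Acta2 the difference was -0.69 (adjusted p = 0.0295 from limma). 2310002L09Rik, P3h2 and Ppp1r1a were among the genes picked for their likeness to Tnnt1 over these same arrays. Their passing is therefore no support separate from that of Tnnt1.

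One wild type array was flagged for the normalized value of Tnnc1. The third littermate of the severe line had a log2 signal of 15.40, and its gap to the nearest of the 6 wild type arrays was 0.677 of their range. Its raw intensity of 42841 lay within the wild type range of 38562 to 43410. Tnnc1 ranked 1 on that array and 2 or 3 on the other wild type arrays, so the gap is a step between ranks in quantile normalization. This was 1 of 7 troponin features examined in this way. The usual rate, by which chance marks about 1 in 20 such groups, does not hold here, because arrays of equal rank share the same value.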

How the results depend on the processing

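Of 91 results under up to 24 alternatives, 57 kept their direction, side of the threshold or count in all, Tnnt1 in both lines among them. Tnni2 passed no longer at a background offset of 16 (-0.69 in the mild line, adjusted p = 0.0572 from limma, and -0.62 in the severe line, adjusted p = 0.105). In the mild line it also failed against own littermates (-0.42), with or without a replicate block, and in the severe line without background correction (-0.47) and in the authors' table (-0.45). Troponins that passed went from 2 to 1 in each of these settings. Leaving out 1 array gave -0.71 to -0.49 in the mild and -0.65 to -0.39 in the severe line for Tnni2, and 1 to 3 and 1 to 2 troponins that passed.

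Signs of values that never passed turned against own littermates, with or without the block: Tnni1 to 0.020 (mild) and -0.12 (severe), Tnni3 to -0.026 and 0.037, Tnnt3 to -0.0017 and Trim54 to 0.12 (both severe). The difference of Tnni3 between the lines, each against its own littermates, turned to 0.034 with median scaling. Leaving out 1 array gave -0.022 to 0.060 for Tnni1 and -0.093 to 0.073 for Tnnt3 in the severe line, -0.20 to 0.056 for Tnni2 and -0.030 to 0.11 for Tnnc2 between the lines, -0.19 to 0.042 for the Tnni3 difference and -0.072 to 0.00085 for Atp2a2 in the severe line.

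Over all features, calls in the mild line numbered 618 at offset 16, 721 against own littermates, 622 with the block against own littermates, and 2070 with copies kept apart, and those of the severe line 496, 716, 534 and 1961. Leaving out 1 array gave 624 to 1071 and 490 to 1088. Past the 2-fold threshold there were 133 in the mild line with copies kept apart and 69 in the severe line at offset 16. Increases were 52.9% of the severe line's calls, and 24.0% with median scaling. Arrays with the same replicate number showed no shared deviation (r from -0.24 to 0.056). With so few hearts in each group, these values cannot decide whether the numbers pair the hearts. Against own littermates, adding the replicate block lowered the calls from 721 to 622 and from 716 to 534. With that block, Tpm2 (0.53, adjusted p = 0.0519 from limma) and Trim54 (0.46, adjusted p = 0.0694) in the mild and Ryr2 (-0.35, adjusted p = 0.0747) in the severe line passed no longer. With features under the median signal left out, Tnnt3, Tnnc2 and Tnni1 gave no value. The causes were not tested.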
